A study of Mus musculus with 12 samples.

Results

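In mouse embryonic fibroblasts that carry a PER2-ER transgene, 57 genes had lower mRNA after 4-hydroxytamoxifen (4-OHT) although no BMAL1 region lay within 10 kb of their start. They were chosen by measured values of the mRNA comparison itself. A gene was taken when its mean over the 4 mRNA libraries was at least 5 CPM (counts per 1000000 counted reads), both 4-OHT values lay below both EtOH values, the log2 ratio of the group means was at most −0.4, and no region of the deposited list came within 10 kb of the upstream end of its outermost exon. Of 23420 genes in the count table, 10286 reached 5 CPM and had a single annotated place, and 7181 of these had no region within 10 kb. The expression criteria were met by 61 of those 7181 genes. A list of 16 names was left out beforehand, and 4 of these names (Greb1, Cyp1b1, Thbs2 and Atf3) would otherwise have been taken.

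All cells were 129/sv embryonic fibroblasts with the genotype per1 -/-, per2 -/-, nr1d1 -/-, nr1d2 -/- and the PER2-ER transgene. Treatment lasted 4 h, with 1 µM 4-OHT in one group and 0.1% EtOH in the other. Each treatment had 2 stranded mRNA libraries, 2 BMAL1 ChIP-seq libraries and 2 ChIP inputs. EtOH cells carried the same deletions and transgene. Transgene-free cells were not analysed here, and effects of PER2-ER and of 4-OHT itself cannot be told apart. The labels leave unstated whether replicates were separate cultures. The p-values therefore reflect library-to-library spread, which may be technical.

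PER2, a circadian repressor, acts on CLOCK-BMAL1, a pair of bHLH-PAS transcription factors that bind E-box DNA (CACGTG and related letters) at clock-controlled genes. A fusion to the ligand-binding part of the estrogen receptor usually makes a protein depend on 4-OHT for entry into the nucleus. Genes under CLOCK-BMAL1 control commonly carry BMAL1 near their start, but enhancers can lie far away, and transcription factors encoded by clock genes can pass a change on to genes that BMAL1 does not occupy.

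The mRNA libraries held 60267540 to 89695667 counted reads, the BMAL1 libraries 13502201 to 20712373 reads and the inputs 12481308 to 33454366 reads. Of the deleted genes, Nr1d1 stood at 16.5 and 17.7 CPM in 4-OHT libraries and 48.9 and 55.6 CPM in EtOH libraries, and Nr1d2 at 39.7 and 35.6 CPM in 4-OHT libraries and 82.9 and 91.9 CPM in EtOH libraries. Per1 stood at 38.3 and 45.7 CPM in 4-OHT libraries and 41.9 and 36.5 CPM in EtOH libraries. Per2 stood at 555 and 614 CPM in 4-OHT libraries and 563 and 546 CPM in EtOH libraries. Counts cover whole genes and the deleted parts are not given in the labels, so this does not check the knockouts. Reads from the PER2-ER transgene may also count as Per2, and their share was not tested. Of 15 fibroblast markers, 12 averaged at least 5 CPM, while Thy1 and Lum had no read in any of the 4 libraries and Dcn at most 0.201 CPM. In bulk RNA, fewer cells of a type and less RNA per cell cannot be told apart. Epithelial markers bear on members such as Trp63. Their 8 genes summed to 14.7 and 16.9 CPM in 4-OHT libraries, against 13.9 and 12.5 CPM in EtOH libraries. Nearly all of this was Cdh1, and Krt5, Krt14, Cldn4 and Esrp1 had at most 0.0279 CPM. Their part in the results was not tested.

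Across the 57 genes the log2 ratio of 4-OHT to EtOH ran down to −1.10 with a median of −0.55. It was at or below −0.8 in 15 genes and at or below −1 in 3. Since the ratio chose the genes, these values describe them and support nothing further. Mean levels ranged between 5.30 and 1081 CPM with a median of 16.9 CPM, while the other 7124 genes at 5 CPM or more without a nearby region had a median of 43.9 CPM. In edgeR's quasi-likelihood test, fitted over all 13216 tested genes with Benjamini-Hochberg adjustment, 56 of the 57 were called lower at an adjusted p below 0.05, beside 1.63% of all tested genes called lower. The rule used the same contrast, so nothing is read from that share. The exception was Gm7977, where the higher 4-OHT value was 94.2% of the lower EtOH value. In every other member it was at most 80.4%. Both 4-OHT libraries below both EtOH libraries was a common pattern by itself, found in 13.5% of genes at 5 CPM or more.

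**Figure D1:**
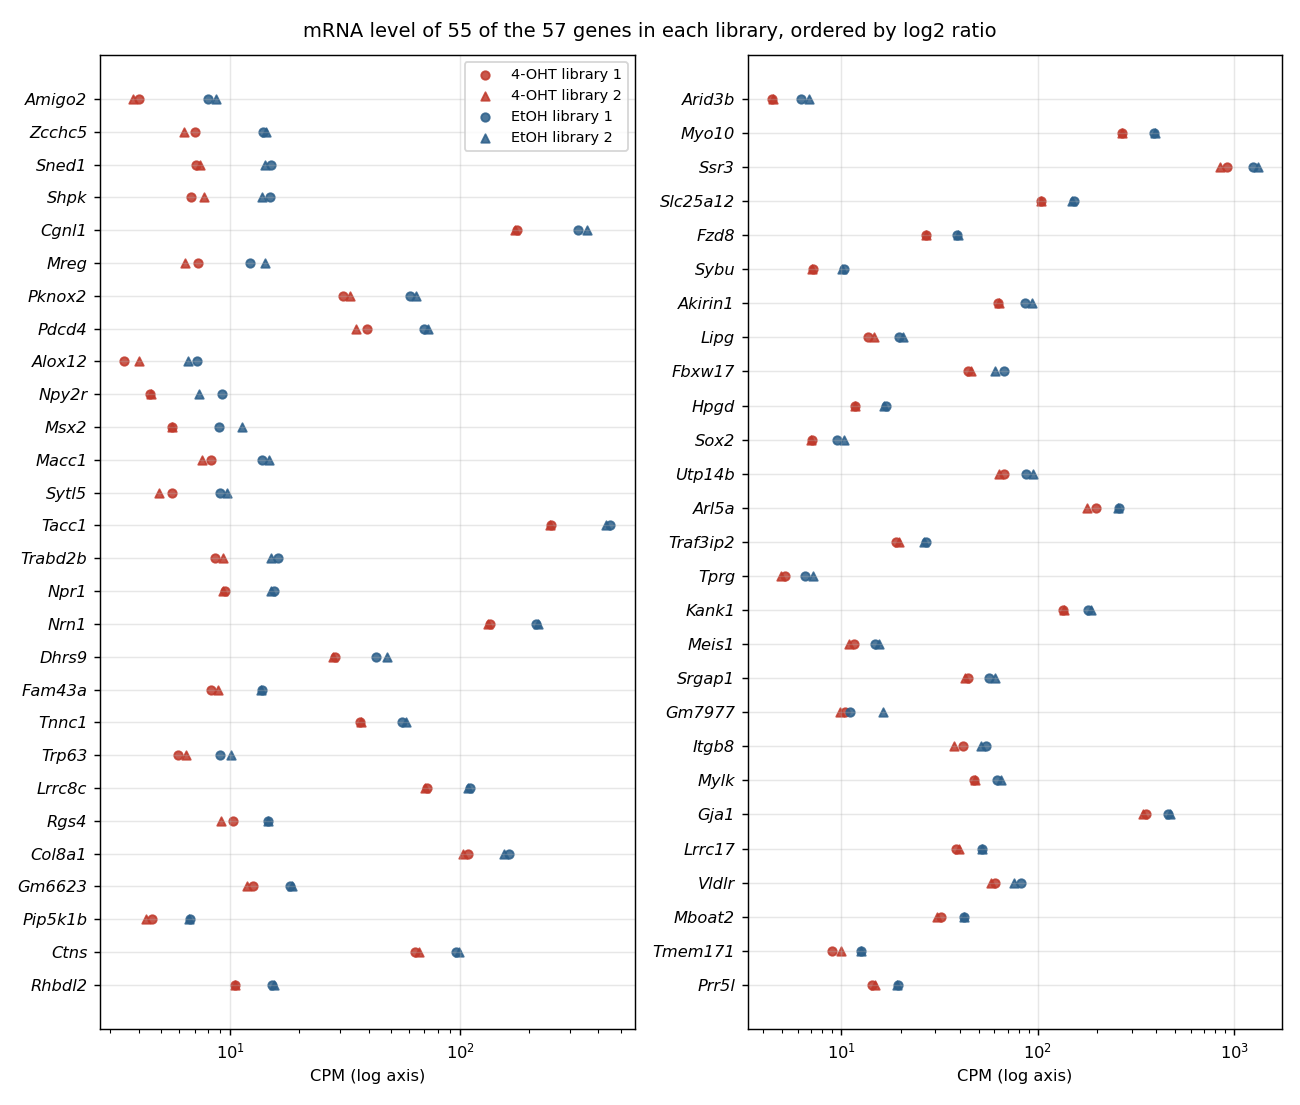
mRNA level in CPM (horizontal log axes) of 55 of the 57 genes in the 2 4-OHT libraries (red) and the 2 EtOH libraries (blue), ordered by log2 ratio down the left panel and on down the right. In each row both red points lie left of both blue points, as the rule required, with the narrowest gap at Gm7977.

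The members spread over 7 loose groups by what their products do. Adhesion, junction and matrix genes made up 8, transcription factors 6, receptors and signalling proteins 12, cytoskeletal proteins 7, metabolism and transport 9, and secretion, trafficking, translation and turnover 8. The other 7 were less described genes and pseudogenes. Median log2 ratios of the groups lay between −0.62 for adhesion, junctions and matrix and −0.52 for the cytoskeleton.

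Amigo2, which encodes an adhesion protein of the leucine-rich repeat and immunoglobulin class, had the lowest ratio. It stood at 4.00 and 3.78 CPM in 4-OHT libraries, against 7.999 and 8.711 CPM in EtOH libraries, a log2 ratio of −1.10. The gene is a single exon on chromosome 15 (97244074 to 97247287, mm10), and its nearest BMAL1 region was 537 kb away. Sned1, which encodes a secreted matrix glycoprotein, had 7.09 and 7.40 CPM in 4-OHT libraries and 15.1 and 14.2 CPM in EtOH libraries (log2 ratio −1.01). Both genes were at low levels, and the rule required their treatments to be apart. Cgnl1 encodes paracingulin, a protein of tight and adherens junctions, and combined a low ratio with a high level. Its values were 177 and 174 CPM in 4-OHT libraries against 327 and 357 CPM in EtOH libraries, a log2 ratio of −0.96.

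Other adhesion and matrix members had smaller ratios. Col8a1, a short-chain collagen, had 108 and 103 CPM with 4-OHT against 164 and 155 CPM with EtOH (−0.59). For Itgb8, the integrin subunit that pairs with alpha-v to bind latent TGF-beta, the values were 41.4 and 37.4 CPM with 4-OHT and 54.2 and 51.5 CPM with EtOH (−0.42). Gja1, the gene of the gap junction protein connexin 43, was the second most abundant member, at 353 and 341 CPM with 4-OHT and 459 and 468 CPM with EtOH (−0.42). Lrrc17, a secreted leucine-rich repeat protein, stood at 38.2 and 39.7 CPM with 4-OHT and 52.0 and 52.1 CPM with EtOH (−0.42).

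Pknox2 and Meis1 were the TALE homeodomain genes among the members, and both were lower because the rule chose them so. Pknox2 (chromosome 9, 36890983 to 37147314) had 31.1 and 33.1 CPM in 4-OHT libraries and 60.3 and 64.1 CPM in EtOH libraries, a log2 ratio of −0.95. Meis1, known as a partner of HOX and PBX proteins, had 11.6 and 10.9 CPM in 4-OHT libraries against 14.9 and 15.6 CPM in EtOH libraries (−0.44). Of their relatives, Pknox1 had an edgeR log2 change of 0.01 and Meis2 one of 0.14, neither called. Msx2, a homeobox gene of limb and skull development, had 5.56 and 5.57 CPM with 4-OHT against 8.98 and 11.3 CPM with EtOH (−0.86). The lower EtOH value lay above both 4-OHT values, as the rule required. The other transcription factors were Trp63 (−0.63), the p53 relative of stratified epithelia, Arid3b (−0.55), an AT-rich DNA-binding protein, and Sox2 (−0.49), a stem cell factor. All 3 averaged under 10 CPM in both treatments.

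Among receptors and signalling proteins, Npy2r, the Y2 receptor of neuropeptide Y, had 4.47 and 4.53 CPM with 4-OHT against 9.17 and 7.33 CPM with EtOH (log2 ratio −0.87). Npr1, the guanylyl cyclase receptor of atrial natriuretic peptide, had 9.50 and 9.26 CPM with 4-OHT against 15.52 and 15.03 CPM with EtOH (−0.70). Nrn1, which encodes neuritin, a GPI-anchored protein of neurite outgrowth, had 135 and 132 CPM with 4-OHT against 214 and 219 CPM with EtOH (−0.70). Trabd2b, known as the metalloprotease TIKI2 that inactivates WNT ligands, had 8.56 and 9.32 CPM with 4-OHT against 16.14 and 15.02 CPM with EtOH (−0.80). A WNT receptor, Fzd8, was also in the group, at 27.0 and 27.1 CPM with 4-OHT and 38.5 and 39.3 CPM with EtOH (−0.52). A receptor and an inhibitor of the same pathway were thus both among the members. Rgs4, which shortens G-protein signals, had 10.3 and 9.13 CPM with 4-OHT against 14.7 and 14.6 CPM with EtOH (−0.59). Vldlr, the very low density lipoprotein and reelin receptor, had 60.3 and 57.4 CPM with 4-OHT against 82.1 and 75.2 CPM with EtOH (−0.42). Further ones were Pip5k1b (−0.59), a phosphatidylinositol phosphate kinase, Rhbdl2 (−0.55), a rhomboid protease, Traf3ip2 (−0.46), the adaptor of interleukin-17 receptors, and Prr5l (−0.40), a protein of the mTORC2 complex. Pip5k1b holds Fam122a on the same strand within its span, so reads where exons coincide could not be assigned by strand.

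Among the cytoskeletal members, Tacc1, a centrosome and microtubule protein, had 248 and 247 CPM in 4-OHT libraries against 451 and 432 CPM in EtOH libraries, a log2 ratio of −0.83. Its relatives Tacc2 and Tacc3 had log2 changes of −0.05 and −0.07 and were not called. Myo10, the motor of filopodia, had 269 and 269 CPM with 4-OHT and 390 and 395 CPM with EtOH (−0.55). Kank1, which links focal adhesions to the cell cortex, had 133 and 136 CPM with 4-OHT and 179 and 186 CPM with EtOH (−0.44). In these genes the 2 libraries of a treatment lay much closer to each other than to the other treatment. The rule asked for treatments that do not overlap and a log2 ratio of at most −0.4, but not for closeness within a treatment. Nothing further is read from this separation. Mylk, the myosin light chain kinase, had 47.2 and 47.6 CPM with 4-OHT and 61.9 and 64.8 CPM with EtOH (−0.42). Tnnc1, the troponin C of slow and cardiac muscle, had 36.6 and 37.1 CPM with 4-OHT and 56.0 and 58.4 CPM with EtOH (−0.63). Of 7 skeletal muscle markers, Acta1 stood at 25.7 and 28.3 CPM with 4-OHT and 23.9 and 29.9 CPM with EtOH, Myod1, Myf5 and Ckm had no read in any library, and Myog, Pax7 and Myh3 had at most 0.0664 CPM. Srgap1 (−0.44), a GTPase-activating protein of the SLIT-ROBO pathway, and Sybu (−0.52), a kinesin adaptor of cargo transport, completed this group.

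Of the metabolic and transport genes, Shpk and Ctns form a divergent pair. Shpk encodes sedoheptulokinase, which feeds the pentose phosphate pathway, and Ctns encodes cystinosin, the lysosomal cystine transporter. Their starts lie 463 bp apart on opposite strands of chromosome 11. Shpk (73199482 to 73224506) had 6.74 and 7.73 CPM with 4-OHT against 14.97 and 13.69 CPM with EtOH (log2 ratio −0.99). Ctns (73183133 to 73199019) had 63.8 and 66.4 CPM with 4-OHT against 96.4 and 98.8 CPM with EtOH (−0.58). The nearest BMAL1 region was about 127 kb from either start. Their promoter windows, 250 bases before to 50 after the RefSeq start (GRCm38.p6), are shown because the 2 genes are transcribed in opposite directions from neighbouring starts. Letters that match CANNTG, the general E-box, are in capitals. Ctns has 3 such matches and Shpk none, and neither window holds CACGTG.
Shpk (RefSeq start, chr11:73199232-73199531, plus strand): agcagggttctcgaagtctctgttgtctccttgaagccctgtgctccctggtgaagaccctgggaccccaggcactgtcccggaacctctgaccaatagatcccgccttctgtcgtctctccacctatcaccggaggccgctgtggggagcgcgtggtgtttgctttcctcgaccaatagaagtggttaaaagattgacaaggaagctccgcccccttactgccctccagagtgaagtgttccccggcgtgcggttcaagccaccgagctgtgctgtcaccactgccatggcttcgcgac
Ctns (RefSeq start, chr11:73198970-73199269, minus strand): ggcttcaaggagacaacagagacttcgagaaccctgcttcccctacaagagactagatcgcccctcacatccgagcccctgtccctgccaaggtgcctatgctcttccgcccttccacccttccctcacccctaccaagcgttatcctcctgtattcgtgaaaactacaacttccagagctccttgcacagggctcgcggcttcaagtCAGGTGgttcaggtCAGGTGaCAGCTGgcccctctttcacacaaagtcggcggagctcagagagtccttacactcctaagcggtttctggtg

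Enzymes of lipid mediators and steroids were also present. Alox12, an arachidonate lipoxygenase and the least abundant member, had 3.46 and 4.00 CPM with 4-OHT against 7.20 and 6.52 CPM with EtOH (log2 ratio −0.88). Hpgd, which inactivates prostaglandins, had 11.7 and 11.7 CPM with 4-OHT against 16.8 and 16.4 CPM with EtOH (−0.50). Dhrs9, a retinol and 3-alpha-hydroxysteroid dehydrogenase, had 28.4 and 27.9 CPM with 4-OHT against 42.9 and 48.2 CPM with EtOH (−0.69). Lipg (−0.51), the endothelial lipase, and Mboat2 (−0.42), a lysophospholipid acyltransferase, act on lipids as well. The 6 adipocyte markers summed to 67.7 and 68.5 CPM in 4-OHT libraries against 78.1 and 83.9 CPM in EtOH libraries. Most of that sum was Fabp4, at 58.2 and 59.6 CPM with 4-OHT and 71.4 and 76.2 CPM with EtOH. Cebpa had 6.19 and 6.09 CPM with 4-OHT and 3.98 and 4.48 CPM with EtOH, so it lay the other way, and Pparg overlapped between the treatments, at 3.22 and 2.85 CPM with 4-OHT and 2.72 and 3.22 CPM with EtOH. Adipoq, Plin1 and Lpl had no read in any library. Whether any adipocytes were present, and what part they had in the lipid genes, was not tested. Endothelial markers summed to 4.503 and 4.27 CPM with 4-OHT against 3.41 and 3.73 CPM with EtOH, with Cdh5, Tie1, Cldn5 and Sox17 at 0. Slc25a12, the mitochondrial aspartate-glutamate carrier, had 104 and 104 CPM with 4-OHT against 152 and 149 CPM with EtOH (−0.54). Lrrc8c, a subunit of volume-regulated anion channels, had 71.9 and 70.3 CPM with 4-OHT against 111 and 108 CPM with EtOH (−0.62). Of its family, Lrrc8b was the sole relative also called lower, with an edgeR log2 change of −0.41 (adjusted p = 0.00048), and Lrrc8a, Lrrc8d and Lrrc8e had changes between −0.09 and 0.11.

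The most abundant member was Ssr3, the gamma subunit of the translocon-associated protein complex of the endoplasmic reticulum. Its level was 919 and 840 CPM with 4-OHT, against 1246 and 1320 CPM with EtOH (log2 ratio −0.54). Arl5a, a GTPase of the Golgi, had 197 and 178 CPM with 4-OHT and 260 and 257 CPM with EtOH (−0.46). A pair of vesicle transport genes of pigment and secretory cells were low in level. Mreg, melanoregulin, had 7.22 and 6.35 CPM with 4-OHT against 12.1 and 14.2 CPM with EtOH (−0.96), and Sytl5, a RAB27 effector, had 5.56 and 4.92 CPM with 4-OHT against 8.99 and 9.69 CPM with EtOH (−0.83). Akirin1 (−0.51), a nuclear cofactor, and Fbxw17 (−0.51), an F-box protein, stood near the middle of the ratios.

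Pdcd4, an inhibitor of the translation initiation factor eIF4A, had 39.5 and 35.4 CPM in 4-OHT libraries against 69.7 and 72.7 CPM in EtOH libraries, a log2 ratio of −0.93. It met the distance criterion narrowly. Its outermost start on chromosome 19 (53892231 to 53929861) lay 10516 bp from a BMAL1 region, and RefSeq lists an inner start, 11120 bp into the gene, that lay 123 bp from the same region. That region (53902747 to 53903228) had a BMAL1 signal, in reads scaled to 10000000 per library (RP10M), of 24.7 and 30.9 in 4-OHT libraries and 118 and 119 RP10M in EtOH libraries, against 4.60 to 8.01 RP10M in the inputs. Its edgeR log2 change was −2.07 (adjusted p = 5.28e-25). The authors' deposited table covers 3317 genes, 3261 of them with a region within 10 kb, so genes like the members are mostly absent from it. There Pdcd4 had a log2 fold change of −0.73 with an adjusted p-value of 4.29e-29. Sybu, the sole other member listed, had −0.31 with 0.00132. These are the authors' own estimates, a different measure from the ratios of mean CPM given here. The outer and the inner window of Pdcd4 are shown because the choice of start decides whether the gene counts as near BMAL1, with CANNTG in capitals. The outer window has 2 matches and the inner none.
Pdcd4 (outer start, chr19:53891981-53892280, plus strand): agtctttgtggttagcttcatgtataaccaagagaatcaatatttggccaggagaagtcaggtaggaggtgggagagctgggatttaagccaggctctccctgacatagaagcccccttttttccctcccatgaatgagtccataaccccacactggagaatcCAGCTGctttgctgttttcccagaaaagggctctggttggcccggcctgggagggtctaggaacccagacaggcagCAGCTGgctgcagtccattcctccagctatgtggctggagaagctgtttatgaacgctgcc
Pdcd4 (inner start, chr19:53903101-53903400, plus strand): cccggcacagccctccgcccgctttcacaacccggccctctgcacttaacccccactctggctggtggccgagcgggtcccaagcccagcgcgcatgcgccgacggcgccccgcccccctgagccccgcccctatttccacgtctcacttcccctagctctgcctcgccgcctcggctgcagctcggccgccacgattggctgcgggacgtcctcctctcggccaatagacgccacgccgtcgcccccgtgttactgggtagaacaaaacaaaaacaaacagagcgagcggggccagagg

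Starts other than the outermost one brought 3 members within 10 kb of a region. Besides Pdcd4 these were Prr5l, with a RefSeq start 3102 bp from a region, and Rhbdl2, with one 9611 bp away. Other starts could be looked up only for the 42 members with a RefSeq promoter entry. With any of those starts counted, 54 members would have been left. The members without an entry were not checked for other starts, so more could lie near a region. The counts sum all exons of a gene, so which start was used was not tested.

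Utp14b, a retrogene for a factor of ribosome biogenesis, had 67.4 and 63.4 CPM with 4-OHT against 86.8 and 94.2 CPM with EtOH (log2 ratio −0.47). It shares its outermost start and strand with Acsl3, a long-chain acyl-CoA synthetase at 243 and 228 CPM with 4-OHT and 293 and 312 CPM with EtOH, which edgeR also called lower. Where their exons coincide, the reads of the 2 genes could not be separated, so the value of Utp14b is uncertain. Its promoter is shown as the sole one with CACGTG among the 41 members that had a window. The letters are in capitals and begin at position −63 from the RefSeq start, which lies 615 bp from the outermost start.
Utp14b (RefSeq start, chr1:78658190-78658489, plus strand): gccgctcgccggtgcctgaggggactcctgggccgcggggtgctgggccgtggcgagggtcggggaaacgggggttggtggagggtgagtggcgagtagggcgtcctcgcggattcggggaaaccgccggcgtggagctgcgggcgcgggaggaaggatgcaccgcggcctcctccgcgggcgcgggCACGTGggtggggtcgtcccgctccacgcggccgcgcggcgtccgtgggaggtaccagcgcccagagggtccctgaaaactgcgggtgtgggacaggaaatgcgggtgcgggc

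Among less described genes, Zcchc5, a retrotransposon-derived gag-like gene on chromosome X (106837082 to 106840643) that RefSeq names Rtl3, had 7.06 and 6.31 CPM with 4-OHT against 13.9 and 14.3 CPM with EtOH (log2 ratio −1.08). Macc1, known as a regulator of MET in colon cancer, had 8.23 and 7.54 CPM with 4-OHT against 13.7 and 14.7 CPM with EtOH (−0.85). Fam43a had 8.23 and 8.85 CPM with 4-OHT and 13.7 and 13.6 CPM with EtOH (−0.68). In each of these 3 genes both EtOH values lay above both 4-OHT values, as the rule required. Of the 41 members that had a promoter window, Zcchc5 and Fam43a were the 2 with CACGTT or its reverse complement AACGTG, an E-box variant, shown in capitals.
Zcchc5 (RefSeq start, chrX:106840490-106840789, minus strand): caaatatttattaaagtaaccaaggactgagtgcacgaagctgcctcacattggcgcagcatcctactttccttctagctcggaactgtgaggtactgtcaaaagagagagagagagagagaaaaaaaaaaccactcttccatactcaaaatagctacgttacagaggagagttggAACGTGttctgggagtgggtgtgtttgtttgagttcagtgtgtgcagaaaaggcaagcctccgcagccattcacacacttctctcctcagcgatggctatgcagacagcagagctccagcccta
Fam43a (RefSeq start, chr16:30599473-30599772, plus strand): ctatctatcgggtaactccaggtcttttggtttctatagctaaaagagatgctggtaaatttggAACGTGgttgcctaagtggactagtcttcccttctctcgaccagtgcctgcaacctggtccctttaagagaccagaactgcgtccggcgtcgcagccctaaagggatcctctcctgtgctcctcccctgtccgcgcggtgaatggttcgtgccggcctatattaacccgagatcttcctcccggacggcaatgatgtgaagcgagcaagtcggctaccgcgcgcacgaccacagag

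Gm6623 (−0.59) and Gm7977 (−0.43) are transcribed pseudogenes in RefSeq, and how far related genes share their reads is uncertain. Gm7977 had 10.4 and 9.80 CPM with 4-OHT and 11.0005 and 16.2 CPM with EtOH, so 1 EtOH library decided its ratio. The last ones, Tprg (−0.44) and Tmem171 (−0.42), were both below 15 CPM. Tprg lost its call without EtOH replicate 2 or 4-OHT replicate 2. At the threshold, Mboat2, Tmem171 and Prr5l lay just inside with ratios of −0.416, −0.415 and −0.401. Kif5c, Cmya5 and Tspan13 lay just outside with −0.394, −0.393 and −0.391. No gap separates the members from genes with slightly smaller ratios.

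Genes without nearby BMAL1 met the expression criteria about as often as genes with it. Of the 7181 genes with no region within 10 kb, 61 did so (0.849%), against 26 of 3105 genes with a region (0.837%), both counted before names were left out. The median ratio of these falling genes was −0.58 without and −0.60 with a region. The mirrored criteria for a rise, with a log2 ratio of at least 0.4, were met by 27 genes without a region (0.376%) and 14 with one (0.451%). The median log2 ratio of all genes was 0.02 in either class. In the plot of ratio by distance, members occur at any distance beyond the criterion, and no trend with distance was tested.

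**Figure D2:**
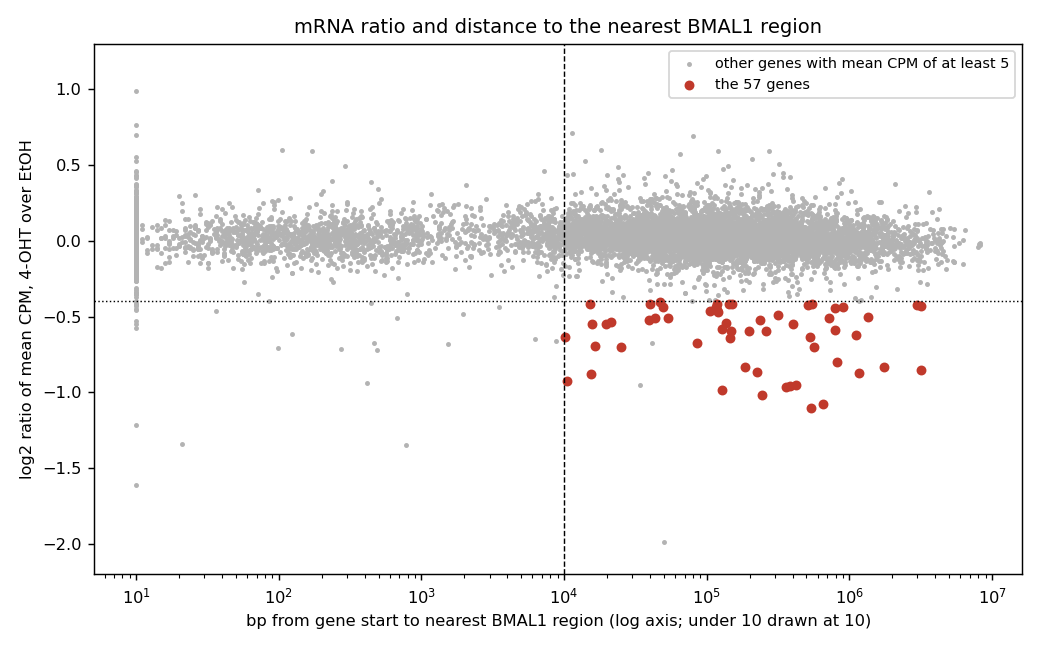
Log2 ratio of mean CPM, 4-OHT over EtOH (vertical axis), by distance from the gene start to the nearest BMAL1 region (horizontal log axis, bp) for genes at 5 CPM or more, with the 57 genes in red. The dashed line marks 10 kb and the dotted line a ratio of −0.4, so the red points fill the lower right quadrant by construction.

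Compared with other expressed genes without a nearby region, the members lay farther from BMAL1 and were more often very long or without introns. The median distance to the nearest region was 184 kb for members and 120 kb for the other 7124 genes. Distances over 500 kb occurred in 18 members (31.6%), against 16.3% of the others, while distances up to 50 kb were about as common (24.6% and 25.2%). The closest regions beyond the criterion belonged to Tnnc1 at 10191 bp, Pdcd4 at 10516 bp, Tmem171 at 15083 bp, Alox12 at 15332 bp and Rhbdl2 at 15672 bp. Farthest away were Gm7977 at 3198 kb, Macc1 at 3162 kb, Itgb8 at 2957 kb, Sytl5 at 1740 kb and Hpgd at 1357 kb. Spans over 100 kb were found in 16 members (28.1%) and 12.6% of the others. Genes of a single exon numbered 7 among the members (12.3%), against 2.33% of the others. Among them were Amigo2, Fam43a, Fzd8, Sox2 and the pseudogenes Gm6623 and Gm7977. Exonic length had almost the same median, 3010 and 3003 bases. These are descriptions without a test, and the members also had lower mRNA levels than the others.

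A RefSeq window with its start within 1 kb of the outermost exon was found for 41 of the 57 genes. CACGTG, searched as written since it reads the same on both strands, stood in 1 of the 41 (2.44%), in 4.09% of the 5548 windows of other expressed genes without a nearby region, and in 25.9% of the 2502 windows of expressed genes with a region within 10 kb. Over all 32851 windows of the table the share was 7.15%. CACGTT or AACGTG stood in 2 member windows (4.88%), 5.10% of those of the other genes and 4.68% of all windows. CANNTG, which includes CACGTG, stood in 25 member windows (61.0%), 59.0% of those of the other genes and 72.3% of all windows. Member windows had fewer CpG pairs, with a median of 14 against 21 for the other genes without a region and 25 for genes with one, and a median GC content of 58.3% against 61.0% and 64.3%.

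BMAL1 signal at the nearest regions of the members was lower after 4-OHT, like that of regions in general. The rule used only the distance of these regions. All regions were named as peaks of the control, so a high EtOH signal helped to put them in the list. A lower 4-OHT signal was favoured by that choice, and its direction is no independent support. Some neighbours share a region, so the 57 genes had 53 distinct nearest regions. The median of these was 7.28 and 7.73 RP10M in 4-OHT libraries, against 25.9 and 24.4 RP10M in EtOH libraries, with 2.09 to 2.48 RP10M in the inputs. Their median log2 change was −1.66, and that of all 4740 regions was the same to this precision. In edgeR's quasi-likelihood test scaled to library totals, 52 of the 53 (98.1%) were called lower at an adjusted p below 0.05, beside 93.8% of all regions and 94.4% of the 2570 regions nearest to the other expressed genes without a region within 10 kb. The exception is the region that is nearest to both Macc1 and Itgb8, 2957 kb from the nearer start, at 4.37 and 1.93 RP10M in 4-OHT libraries and 2.96 and 2.84 RP10M in EtOH libraries. Scaled with TMM factors over the regions, which sets the shared change to about 0, none of the 53 was called by edgeR and 3 were lower at an unadjusted p below 0.05. DESeq2 with library totals called 40. The shares of all regions called under these 2 alternatives are not given here, so nothing particular to the 53 is read from their counts.

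Summed over the 53 regions, the signal was 573 and 596 RP10M in 4-OHT libraries against 1940 and 1875 RP10M in EtOH libraries, a log2 ratio of −1.71. The groups did not overlap, in regions that were named as peaks of the control. The exact permutation test, two-sided, gave p = 0.33, and no smaller p can be had with 2 libraries a group.

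**Figure D3:**
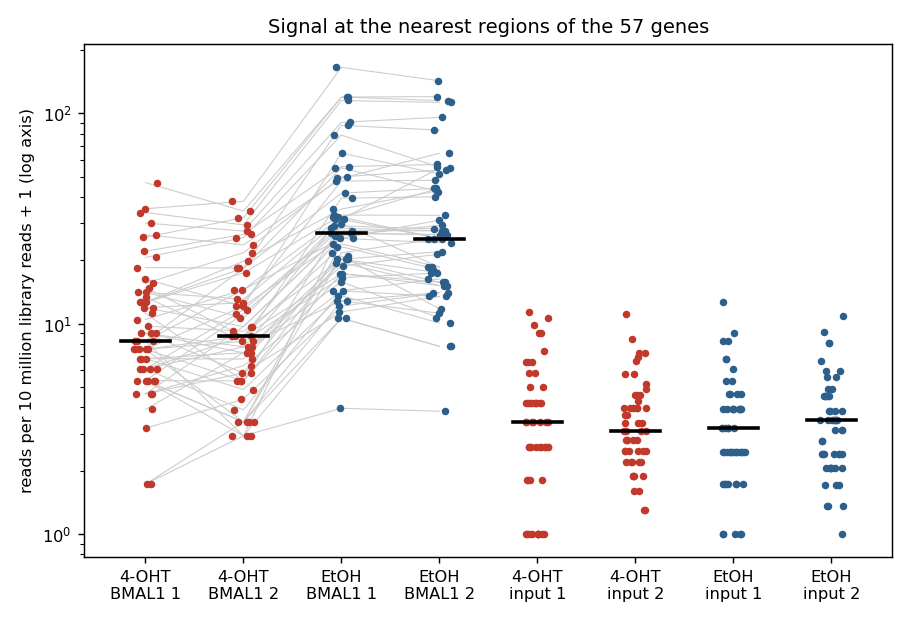
Reads per 10000000 library reads plus 1 (vertical log axis) at the 53 nearest regions in each BMAL1 and input library, with 4-OHT in red and EtOH in blue, black bars at the medians and grey lines joining a region across the BMAL1 libraries. The 4-OHT medians of 7.28 and 7.73 lie below the EtOH medians of 25.9 and 24.4 and above the input medians (all before adding 1).

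Regions inside the transcribed span, beyond 10 kb of the start, were found in 8 of the 57 members, against 229 of the other 7124 genes (3.21%). Among genes over 100 kb long it was 5 of 16 members (31.2%) and 13.7% of 900 others. With only regions whose authors' fold enrichment reached the median of all regions, the members' count was 4 and that of the others 127 (1.78%). The 8 genes were Pdcd4, Rhbdl2, Dhrs9, Myo10, Sybu, Kank1, Srgap1 and Mylk, and Myo10 held 2 regions. All 9 regions were called lower by edgeR, beside 93.8% of all regions, so nothing particular to them is read from this count. The stronger Myo10 region (chromosome 15, 25642272 to 25642615), 19.7 kb into the gene, had 45.8 and 33.3 RP10M in 4-OHT libraries and 118 and 114 RP10M in EtOH libraries. In Rhbdl2 (chromosome 4, 123803547 to 123804020) the signal was 32.7 and 28.5 RP10M with 4-OHT and 114 and 112 RP10M with EtOH. These, with the one in Pdcd4, were the strongest of the 9. In Kank1 it was 12.4 and 7.24 RP10M with 4-OHT and 38.5 and 39.1 RP10M with EtOH, 115 kb into the gene, and in Dhrs9 5.09 and 7.73 RP10M with 4-OHT and 31.1 and 24.4 RP10M with EtOH. Those of Srgap1, Mylk and Sybu and the second one in Myo10 had at most 31.1 RP10M in any library.

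Several members were next to each other. With genes at 5 CPM or more ordered along each chromosome, 4 neighbouring pairs both belonged to the 57. Apart from Ctns and Shpk these were Akirin1 and Rhbdl2, with starts 37.6 kb apart, Itgb8 and Macc1, 205 kb apart, and Tprg and Trp63, 397 kb apart. The other flanking genes numbered 104. In edgeR's test 12 of them were called lower (11.5%), beside 1.22% of all 10229 genes at 5 CPM or more that are no members. Among the 10125 genes that neither belong to nor flank the 57, the share was 1.12%. None of the 104 was called higher, in edgeR or in DESeq2. In edgeR 0.802% of all tested genes and 0.869% of those 10125 genes were called higher. With so low a share, nothing is read from the absence of such calls. At an unadjusted p below 0.05 in edgeR, 2 of the 104 were higher, and the share of all genes at that threshold is not given here. The median log2 ratio of the flanking genes was −0.04, against 0.02 for the rest, and 71.2% of them had a ratio below 0, against 39.8%. Their median level was much the same, 49.0 and 49.3 CPM.

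The flanking genes called lower had small ratios for the most part. The lowest was that of Tiparp, an ADP-ribosyltransferase gene with a BMAL1 region 785 bp from its start. Tiparp stood next to Ssr3 at 136 kb. Its level was 130 and 117 CPM with 4-OHT against 312 and 317 CPM with EtOH (log2 ratio −1.35). Next to Shpk lay Aspa, the aspartoacylase gene, with a region at 1968 bp, at 17.2 and 16.8 CPM with 4-OHT against 24.8 and 22.8 CPM with EtOH (−0.48). On the other side of that cluster, next to Ctns, lay Tax1bp3, a PDZ protein, at 62.8 and 63.3 CPM with 4-OHT and 76.8 and 73.6 CPM with EtOH (−0.25). In this stretch Tax1bp3, Ctns, Shpk and Aspa, consecutive among expressed genes, were all called lower. Lrrc8b lay next to its relative Lrrc8c at 104 kb, with 23.35 and 25.03 CPM with 4-OHT against 31.95 and 31.48 CPM with EtOH (−0.39). Nisch started 1486 bp from Tnnc1 on the opposite strand and had 454 and 493 CPM with 4-OHT against 589 and 576 CPM with EtOH (−0.30). The others were Acsl3, F13a1, Ptplb, Hat1, Armc10, Spcs3 and Lpar4, with ratios between −0.36 and −0.24. Of the 12, 5 were on the same strand as the member they flank, beside 58 of all 104 flanking genes. A region within 10 kb was found for 4 of the 12, beside 3105 of all 10286 genes at 5 CPM or more. Nothing particular to the 12 is read from these counts. Without flanking genes that met the fall criteria themselves or overlap a member, 9 of 99 were called (9.09%). Fewer flanking genes were called without either EtOH replicate or without 4-OHT replicate 2, and more without 4-OHT replicate 1. Calls over all genes moved the same way, so nothing particular to flanking genes is read from this. A share of called neighbours was looked at after the members were known, and no test of it was made.

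**Figure D4:**
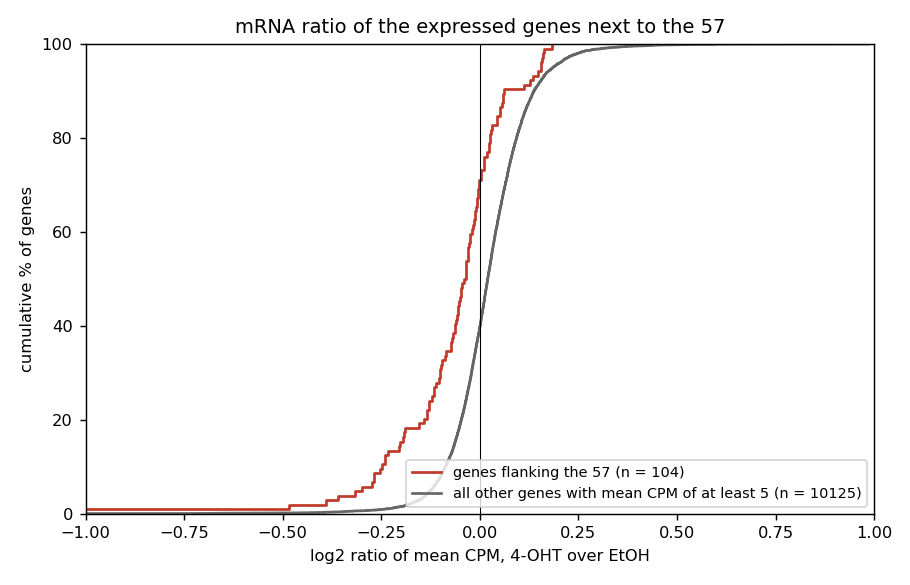
Cumulative share of genes in percent (vertical axis) by log2 ratio of mean CPM, 4-OHT over EtOH (horizontal axis, drawn within −1 to 1), for the 104 genes flanking the 57 (red) and the 10125 other genes at 5 CPM or more (grey). The red curve lies to the left of the grey one, with 71.2% against 39.8% of genes below 0.

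For 38 members a short list of paralogs was written down after the members were known, and 59 of these paralogs were tested. Of them 1 was called lower, Lrrc8b, and none higher by edgeR, beside 1.63% lower and 0.802% higher over all tested genes, so the count is near that background. At an unadjusted p below 0.05, 5 were lower and 3 higher. DESeq2 called the same number in each direction. Their median log2 change was −0.02, against 0.00 for all tested genes. Arid3a (−0.02), Npr2 (−0.07), Srgap2 (−0.04), Kank2 (−0.05) and Slc25a13 (−0.04) were expressed at over 20 CPM and not called. Itgb1, the most abundant relative at 1978 and 1829 CPM with 4-OHT and 1880 and 1960 CPM with EtOH, had a log2 change of −0.03. A missed threshold does not show that a gene did not change.

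Few members stood in the 25 lists of pathway genes used for orientation, 9 in all. Among these were Amigo2, Itgb8 and Lrrc17 among adhesion receptors, Rgs4 among G-protein-coupled receptors and their regulators, Fzd8 in the WNT list, Msx2 among transcription factors, Gja1 among channels and transporters, and Myo10 among muscle and cytoskeleton genes. Of the 732 tested list genes that are no members, 23 (3.14%) were called lower and 32 (4.37%) higher, beside 1.63% lower and 0.802% higher over all 13216 tested genes. The lists were chosen with earlier results of these data known. In the lists that held members, 1 of 32 other adhesion genes was called, Flrt2, and it was higher. The WNT list had 3 of 37 other genes called, Lef1, Sfrp2 and Wisp1, all higher. Of 45 other muscle and cytoskeleton genes 6 were called lower (Arhgap42, Flnc, Rbm20, Rhob, Rnd1 and Rock2), beside the 1.63% over all tested genes, and no set test was made. Flnc, filamin C, stood at 208 and 220 CPM with 4-OHT against 261 and 242 CPM with EtOH (log2 change −0.26, adjusted p = 0.0155). Rock2, a kinase that acts on actomyosin, stood at 325 and 291 CPM with 4-OHT against 338 and 378 CPM with EtOH (−0.24, adjusted p = 0.0422). The list's median log2 change was −0.06, against 0.00 for all tested genes. Of 104 other transcription factors, 3 were lower and 10 higher, and among the 35 G-protein-coupled receptors and regulators it was 2 in each direction. Over all lists the 55 calls became fewer without either EtOH replicate or without 4-OHT replicate 2, and more without 4-OHT replicate 1. Calls over all genes moved the same way.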

How the data were processed

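The authors counted reads per gene with featureCounts v1.5.0-p1, per the file headers, summing a gene's exons (UCSC mm10) on the reverse strand. Aligner: not given in the sources used here. The deposited region files hold read counts in 4740 regions, named as MACS2 peaks of the control, and the caller's fold enrichment, a ratio by the authors. The deposited signal table equals 5 plus reads per 10000000 library reads and gave the library totals. The authors' deposited table has a log2 fold change and an adjusted p-value. Also named, per the submitters' processing notes, are DESeq2 and bedtools 2.25.0.

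CPM were counts per 1000000 of a column's sum. For genes, edgeR 4.0.16 (R 4.3.3) was run on the deposited counts (TMM factors 0.992 to 1.01, its expression filter, robust quasi-likelihood fit, Benjamini-Hochberg adjustment) and for regions likewise with library totals and no filter or scaling. DESeq2 1.42.0 was an alternative. Both fits were tested on simulated data. The 133 genes annotated at several places were left out of the classes by distance. Outermost starts came from the exons in the count table, other starts and promoters from RefSeq (GRCm38.p6), in which all 57 members had a gene entry and 42 a promoter entry.

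The members and gene lists were chosen with earlier results of these data known. Genes named are the 20 lowest ratios, the 20 highest levels, list members, genes at the thresholds and those with the closest, farthest or inside regions. The remaining members, neighbours and paralogs were named after their values were seen. Values of 2 members are not reported here.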

Additional observations from a re-analysis of the deposited data

How the results depend on the processing

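The number of genes that meet the rule moved from 57 to 87 when a mean of 1 CPM sufficed. Under the other settings it stayed between 38 (ratio at most −0.5) and 82 (ratio at most −0.3), with 43 for a distance of 50 kb, and between 55 and 62 when 1 mRNA library was left out, which kept 49 to 54 of the 57. Of the members, 54 were called lower by edgeR or DESeq2 in each of the 9 settings tried. The call was lost by 2 members, Tprg among them, in DESeq2 and without some libraries, and Gm7977 was called under some settings. No member changed sign. The same libraries chose the members, so these counts are no sign of stability. Region calls at the 53 nearest regions went to 0 with TMM factors over the regions, and the 8 members with a region inside became 4 with the stricter fold enrichment. Other list genes called, 55 in all, numbered 19 to 63 with 1 library left out. Flanking genes called lower, 12 in all, numbered 5 to 15. Calls over all genes also rose or fell with the library left out. These alternatives for flanking genes, the RefSeq starts (54 members) and the unscaled fit were chosen after seeing the data.

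Libraries of the same replicate number did not deviate alike: the correlation of deviations was −0.168 for mRNA and 0.0218 for ChIP. With the replicate block, 57 members, 25 other list genes and 6 flanking genes were called, and 52 nearest regions. Over all genes that fit called 152 lower and 60 higher, against 216 and 106 in the main fit. With the pairing of mRNA libraries crossed, 57 members were called lower, among 611 genes called lower and 518 called higher. Why this fit called more genes than the main one was not tested. Depth limits the members near 5 CPM and the weakest nearest regions most.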

Other observations

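Below the level of 5 CPM, 30 further genes with a mean of at least 1 CPM met the other criteria and had no region within 10 kb. The lowest ratio belonged to Rbm20, a splicing factor of muscle, with 0.548 and 0.524 CPM in 4-OHT libraries against 2.95 and 3.19 CPM in EtOH libraries (log2 ratio −2.52). That ratio is below those of all 57 members, and its nearest region lay 22866 bp from the start. Olfm2, an olfactomedin, had 2.02 and 2.54 CPM with 4-OHT against 4.90 and 4.81 CPM with EtOH (−1.09). Krtap1-5, a hair keratin-associated gene, had 2.87 and 2.79 CPM with 4-OHT against 5.24 and 6.40 CPM with EtOH (−1.04). Gpr44, the prostaglandin D2 receptor CRTH2, had 1.47 and 1.38 CPM with 4-OHT against 2.93 and 2.90 CPM with EtOH (−1.03), with a region 11921 bp away. These genes were chosen by the same contrast, so the values describe them only.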
